A study of Mus musculus with 6 samples.

Results

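The angiopoietin-Tie system is described here from 6 genes: the ligands *Angpt1*, *Angpt2* and *Angpt4*, the receptors *Tek* (Tie2) and *Tie1*, and *Ptprb*, the receptor phosphatase VE-PTP. They were chosen by name, as rows of the deposited expression table, which lists 24972 gene symbols. All 6 symbols were in the table, and 5 of them passed the filter on low values, *Angpt4* being the exception. The RNA-Seq compared CD31+ cells taken from the lungs of mice at P7 (isolated lung ECs, iLECs) in 3 control and 3 *Atp6ap2* iECKO libraries. All 6 samples carried a floxed *Atp6ap2* allele and had received tamoxifen (100 μg) daily from P1 to P3. Controls had no Cre. *Atp6ap2* iECKO samples also had the *Cdh5-CreERT2* transgene, a tamoxifen-activated Cre recombinase driven by the *Cdh5* (VE-cadherin) promoter, so that deletion is confined by design to ECs, the cells in which this promoter is active. The sample labels give the strain as C57BL/6, and the study's methods describe a mixed CD1 and C57BL/6 background. The cells were pulled down with magnetic beads with no further sorting described. The study checked the purity of the isolated cells by immunoblot for VE-cadherin and the mural proteins α-SMA and desmin, which is not analysed here. It reported VE-cadherin only in the isolated cells, and α-SMA and desmin in the fraction of other cells. RNA of *Acta2*, the α-SMA gene, was present in every library (normalized counts of at least 269). Where markers of other cell types are lower in the RNA, fewer cells of a type and less RNA per cell cannot be told apart.

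Angiopoietins are secreted ligands that share the receptor Tie2, a tyrosine kinase found mainly on ECs. Angpt1, made by mural and other mesenchymal cells around the vessel, activates Tie2 and is known for stabilizing vessels, while Angpt2, made and stored by ECs themselves, acts on the same receptor as a context-dependent antagonist or weak agonist. Tie1 has no well-established angiopoietin of its own and modulates Tie2 in complexes with it, and VE-PTP dephosphorylates Tie2. Active Tie2 signals through PI3K and AKT, which keep the transcription factor FOXO1 out of the nucleus, and *Angpt2* is a known FOXO1 target gene. In the lung, this system is known for its part in capillary growth and barrier function.

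The values are normalized counts, that is, gene counts already scaled between libraries by the authors, and their library totals were between 26243878 and 28725799. The number of reads behind a value is not known, so errors are those between the 3 libraries of a genotype. In limma results these are moderated by the spread of all genes tested. Differences between genotypes were tested with limma over 14456 genes, after adding 1 to each value and taking log2, with Benjamini-Hochberg adjustment. By this test 1193 genes passed an adjusted *P* value of 0.05 (8.25% of those tested), 4.97% as lower and 3.28% as higher in *Atp6ap2* iECKO iLECs. The targeted gene *Atp6ap2* was at normalized counts of 7490, 5815 and 5681 in control replicates 1 to 3 and at 4220, 2336 and 1982 in *Atp6ap2* iECKO replicates 1 to 3, so that its log2 fold change was -1.22 ± 0.26 (standard error) with an adjusted *P* value of 0.0306 from limma. All *Atp6ap2* iECKO libraries were below all controls, and replicate 1 kept the most. *Atp6ap2* lies on the X chromosome. In the study fl/Y mice were male and fl/fl mice female, and its methods state that both sexes were analyzed. Although the labels give an fl/Y genotype throughout, 4 libraries had *Xist* normalized counts of at least 37704. Only control replicate 3 and *Atp6ap2* iECKO replicate 2 had little (31.7 and 19.3), so that each genotype held both kinds of library. Results are therefore also given from those 4 libraries and from that pair. No differential expression of any gene passed the adjusted threshold with the 4 libraries alone (0 of 14094 genes by limma, 2196 at an unadjusted *P* value below 0.05).

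Among the members, the mural ligand fell most, and the receptor *Tek* fell by less. *Ptprb* had a log2 fold change of -0.68, below the -0.53 of *Tek*, but missed the threshold (adjusted *P* = 0.0527 from limma). The endothelial ligand and *Tie1* did not pass the test either. Of the 5 members tested, 2 passed as lower, *Angpt1* and *Tek*, and 0 as higher, against the 8.25% of all tested genes. Both genes had been picked from the same libraries before, so that their fall is not independent evidence. The values of the genotypes did not overlap for 3 of the 5 members (*Angpt1*, *Tek* and *Ptprb*), where this was so for 29.8% of all genes tested. The median log2 fold change of the 5 members was -0.53, beside 0.00 over all genes tested. The direction of each of the 5 log2 fold changes was the same with library size, upper quartile or endothelial marker scaling.

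**Figure D1:**
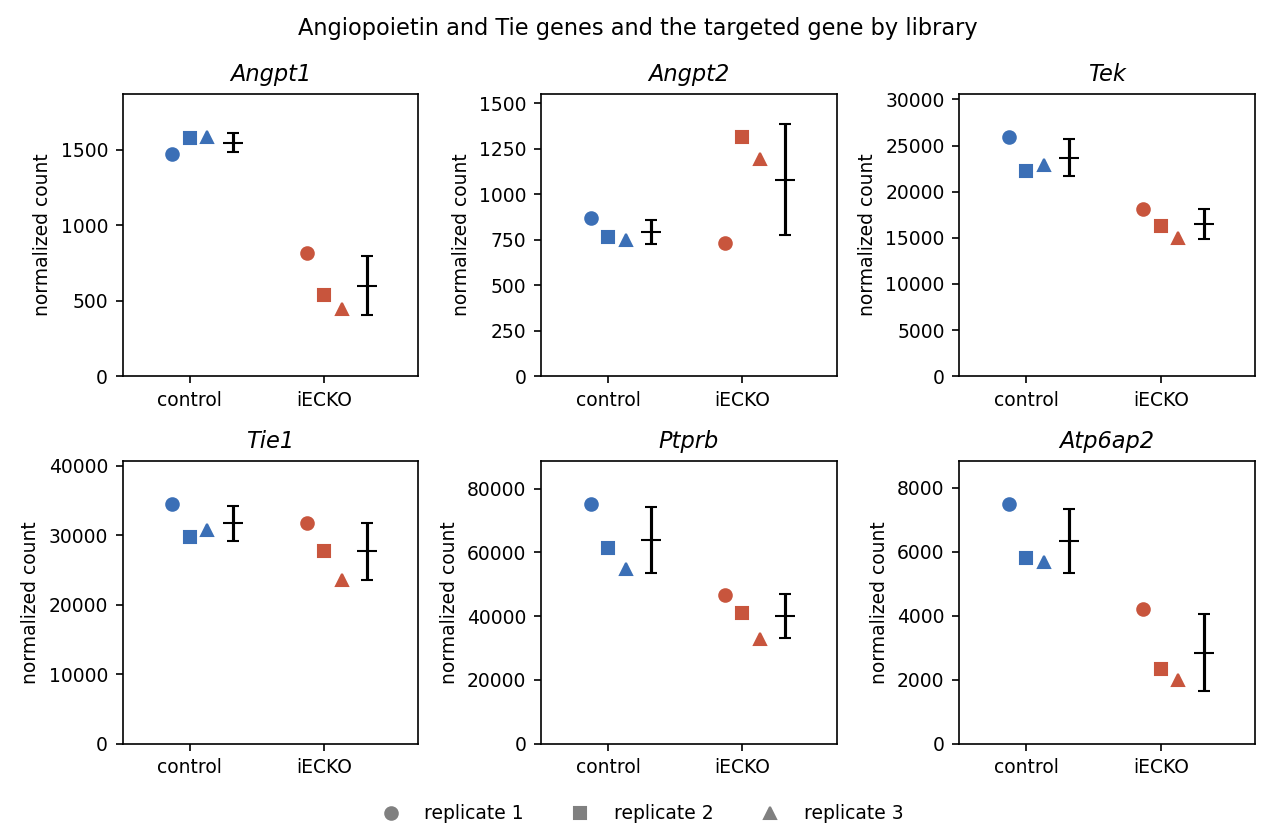
Normalized counts (y axes, from 0) of the 5 tested members and of the targeted gene in each control and Atp6ap2 iECKO library, with symbols for the replicate number and bars for the mean and SD of 3 libraries. Angpt1, Tek, Ptprb and Atp6ap2 are lower in every iECKO library than in every control, while Tie1 overlaps and Angpt2 is at 733 in iECKO replicate 1 and above 1190 in replicates 2 and 3.

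*Angpt1*, on the minus strand of chromosome 15 (GRCm38, 42424723 to 42676977, with 9 exons in its longest coding transcript), encodes the activating ligand. Its normalized counts were 1475, 1580 and 1587 in control replicates 1 to 3 and 819, 536 and 446 in *Atp6ap2* iECKO replicates 1 to 3. The controls lay close together and the *Atp6ap2* iECKO libraries were all lower, at 38.8% of the control mean on average. The means were 1548 ± 62.6 and 600.4 ± 194.6 (SD, n = 3 each), with a log2 fold change of -1.41 (standard error 0.20, 95% confidence interval -1.88 to -0.95, adjusted *P* = 0.0108 from limma). The two-sided exact permutation *P* value was 0.1, the smallest that 3 samples against 3 allow. When single libraries were omitted, *Angpt1* remained between -1.66 and -1.22, and all 6 adjusted *P* values were below 0.05 (from 0.00484 to 0.0485). From the 4 libraries with *Xist* it was -1.34 (adjusted *P* = 0.143), and between the pair with little *Xist* it was -1.56. In the annotation, 737 exon bases of *Angpt1* are shared with the gene model *Gm17473*, which is not a row of the table. The library kit does not mark strand.

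Most markers of mural cells and fibroblasts, mesenchymal cells, were also lower in *Atp6ap2* iECKO libraries. Among controls these markers spread more widely than *Angpt1*. Relative to the control mean on the log2 scale, control replicates 1 to 3 were at -0.41, 0.25 and 0.16 for the mean of the mural markers. For the fibroblast markers they were at -0.42, 0.19 and 0.23, and for *Angpt1* at -0.07, 0.03 and 0.04. Of 20 mural cell markers, 15 passed as lower and 0 as higher, the 20 log2 fold changes reaching from -1.94 to -0.55 about a median of -1.52. Their summed normalized count was 46285 to 65314 in controls against 21609 to 26096 in *Atp6ap2* iECKO libraries. The pericyte receptor gene *Pdgfrb* had a log2 fold change of -1.54 (adjusted *P* = 0.00831), the proteoglycan gene *Cspg4* (NG2) had one of -1.52 (adjusted *P* = 0.0191), and the smooth muscle actin gene *Acta2* had one of -1.45 (adjusted *P* = 0.0504, not past the threshold). *Postn*, a matrix protein gene, and *Mylk*, a myosin kinase gene, were the mural markers with the highest values, and both fell (-1.57 and -0.55). Of 19 tested fibroblast markers, 16 passed as lower and 0 as higher, with a median of -1.51. Their sum was 101882 to 157174 in controls against 36305 to 51812 in *Atp6ap2* iECKO libraries. *Mfap4*, which encodes a microfibril-associated protein, and the collagen gene *Col3a1* had the highest values among them and fell (-1.84 and -1.56). No mural or fibroblast marker was at 0 in all libraries.

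Set against these markers within each library, the values of *Angpt1* overlapped between genotypes. Its log2 value minus the mean log2 value of the mural markers was 1.11, 0.54 and 0.63 in control replicates 1 to 3 and 1.15, 0.71 and 0.51 in *Atp6ap2* iECKO replicates 1 to 3. These ranges overlapped, and the means differed by 0.03 (exact permutation test, two-sided *P* = 0.8, adjusted *P* = 0.9 over 6 such values). Against the fibroblast markers the difference between genotypes was -0.03 (exact permutation test, *P* = 0.9, adjusted *P* = 0.9). With 3 samples against 3, this test cannot give a *P* value below 0.1, so it could not have passed 0.05. The choice of markers fixes part of these values, which are given as a description. Both differences changed sign with other settings, staying between -0.15 and 0.20 for mural and between -0.12 and 0.15 for fibroblast markers. *Angpt1* is also known from megakaryocytes and platelets. The summed count of their markers was 1078 to 3433 in controls against 1230 to 2964 in *Atp6ap2* iECKO libraries. Of 7 tested markers 0 passed by limma (0 also at an unadjusted *P* value below 0.05). *Gp1ba* and *Itga2b* had the highest values, and *Pf4*, a platelet chemokine, was highest in replicate 1 of both genotypes (463 and 407). Which cell types supplied the *Angpt1* RNA, and the part of each in its fall, was not tested.

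**Figure D2:**
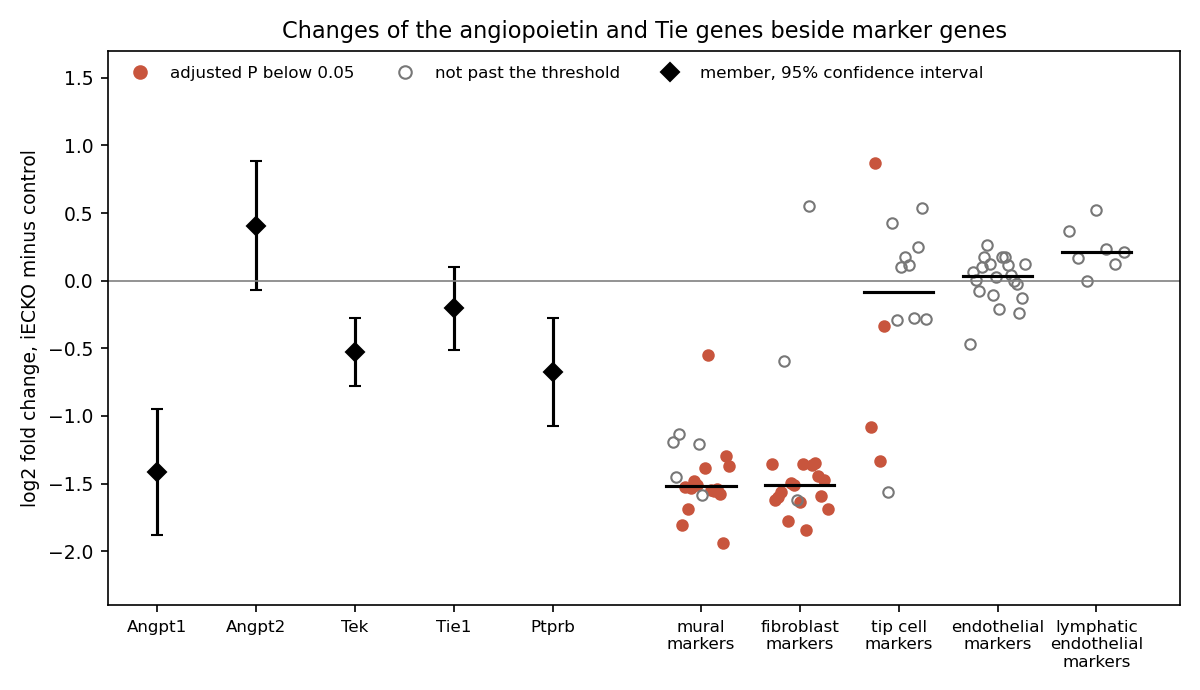
Log2 fold change, Atp6ap2 iECKO minus control (y axis), of the 5 tested members with 95% confidence intervals, beside single marker genes of 5 cell types, filled where the adjusted P value was below 0.05, with lines at list medians. Angpt1 at -1.41 lies beside the medians of the mural (-1.52) and fibroblast (-1.51) markers, and Tek at -0.53 lies below every endothelial marker, the lowest of which is at -0.47.

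*Angpt2*, on the minus strand of chromosome 8 (18690263 to 18741562), encodes the ligand that ECs release. Its normalized counts were 868, 763 and 747 in control replicates 1 to 3 and 733, 1317 and 1193 in *Atp6ap2* iECKO replicates 1 to 3. Replicates 2 and 3 of the *Atp6ap2* iECKO group were above all controls, while replicate 1, which kept the most *Atp6ap2*, was the lowest of the 6 libraries. The means were 792.5 ± 65.7 and 1081 ± 307.5 (SD, n = 3 each), and the log2 fold change of 0.41 did not pass (standard error 0.21, 95% confidence interval -0.07 to 0.88, adjusted *P* = 0.282 from limma). Leaving out *Atp6ap2* iECKO replicate 1 raised it to 0.66 (adjusted *P* = 0.0234), the only one of the alternatives under which *Angpt2* passed. Its adjusted *P* value ranged from 0.0234 to 0.719 over these alternatives. It was 0.82 between the pair with little *Xist* and 0.20 in the 4 other libraries (adjusted *P* = 0.719). *Angpt2* lies inside the gene *Mcph1*, which is on the opposite strand, and shares 0 exon bases with it. *Mcph1* was lower in level, with normalized counts of 246.5 to 330.5 in controls and 350.2 to 431.9 in *Atp6ap2* iECKO libraries (log2 fold change 0.44, adjusted *P* = 0.137).

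Tip cells, the leading ECs of a sprout, are a known site of *Angpt2* expression, and the markers of these cells did not move one way. Of 14 tip cell markers, 1 passed as higher and 3 as lower, with a median log2 fold change of -0.09. The peptide hormone gene *Apln* rose (0.87, adjusted *P* = 0.0284). The chemokine receptor gene *Cxcr4* (-1.33, adjusted *P* = 0.00848), *Adm* (-1.08, adjusted *P* = 0.0396), which encodes adrenomedullin, and the Notch ligand gene *Dll4* (-0.33, adjusted *P* = 0.0432) fell. *Esm1*, an endothelial proteoglycan gene, had values of 1076 to 4151 in controls and 389 to 913 in *Atp6ap2* iECKO libraries (-1.57, adjusted *P* = 0.0982). *Mcam* and *Dll4* were the markers of this list with the highest values.

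*Angpt4*, on the plus strand of chromosome 2 (151911210 to 151945337), was listed at 0 in 5 libraries and at 1.86 in *Atp6ap2* iECKO replicate 3. It was not tested, and no fold change is given.

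*Tek*, on the plus strand of chromosome 4 (94739289 to 94874976, with 23 exons), encodes Tie2, the receptor of the angiopoietins. Its normalized counts were 25973, 22236 and 22872 in control replicates 1 to 3 and 18165, 16302 and 14963 in *Atp6ap2* iECKO replicates 1 to 3. Every *Atp6ap2* iECKO library was below every control, at 69.5% of the control mean on average. The means were 23694 ± 1999 and 16477 ± 1608 (SD, n = 3 each), with a log2 fold change of -0.53 (standard error 0.11, 95% confidence interval -0.78 to -0.27, adjusted *P* = 0.0292 from limma, exact permutation *P* = 0.1). The size of this fall stayed between -0.60 and -0.46 with each library left out in turn, but its adjusted *P* value was below 0.05 in only 1 of these 6 fits. It was 0.0542, 0.0524 and 0.0752 without control replicates 1, 2 and 3, 0.111 and 0.117 without *Atp6ap2* iECKO replicates 2 and 3, and 0.0335 without replicate 1. The fall was -0.54 in the 4 libraries with *Xist* (adjusted *P* = 0.215) and -0.49 between the other pair.

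*Tie1*, on the minus strand of the same chromosome (118471191 to 118490061, with 22 exons), encodes the second receptor. Its normalized counts were 34474, 29789 and 30813 in control replicates 1 to 3 and 31792, 27732 and 23518 in *Atp6ap2* iECKO replicates 1 to 3. *Atp6ap2* iECKO replicate 1 lay among the controls, and the other two lay below them. The log2 fold change was -0.20 (standard error 0.13, 95% confidence interval -0.51 to 0.10, adjusted *P* = 0.405 from limma), with means of 31692 ± 2463 and 27681 ± 4137 (SD, n = 3 each). It did not pass under any alternative tried (adjusted *P* from 0.226 to 0.802). It was -0.23 in the 4 libraries with *Xist* (adjusted *P* = 0.582) and -0.15 between the pair with little.

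For the endothelial markers, RNA showed no difference between genotypes past the threshold, and the number of ECs was not measured. Of 20 endothelial markers 0 passed by limma (1 at an unadjusted *P* value below 0.05), their median log2 fold change was 0.04, and their sum was 392046 to 522829 in controls against 411045 to 487024 in *Atp6ap2* iECKO libraries. *Cdh5* and *Pecam1* (CD31, the antigen of the isolation), which encode endothelial adhesion proteins, differed by 0.07 (adjusted *P* = 0.853) and by 0.12 (adjusted *P* = 0.599) on the log2 scale. These 2 genes had the highest means of the list over the 6 libraries. *Calcrl*, which encodes a receptor for adrenomedullin, was above *Pecam1* in the control mean and had the lowest log2 fold change of the list (72207, 56722 and 48597 in controls and 55406, 39527 and 34277 in *Atp6ap2* iECKO libraries, -0.47, adjusted *P* = 0.228). Relative to the mean of these markers within each library, *Tek* was at 0.70, 0.64 and 0.81 on the log2 scale in control replicates 1 to 3 and at 0.25, 0.14 and 0.15 in *Atp6ap2* iECKO replicates 1 to 3. The genotypes did not overlap, and the difference was -0.53 (exact permutation *P* = 0.1, the smallest possible, adjusted *P* = 0.2 over 6 values). By the same measure *Tie1* differed by -0.21 and *Ptprb* by -0.68 without overlap (exact permutation *P* = 0.1 and adjusted *P* = 0.2 for each), and *Angpt2* by 0.40 with overlap (*P* = 0.4, adjusted *P* = 0.6, exact permutation test). Lymphatic ECs also express Tie receptors. Of their 7 markers 0 passed by limma (2 at an unadjusted *P* value below 0.05), and *Lyve1* and *Flt4* had the highest values. The median log2 fold change was 0.21, with 6 markers higher and 1 lower in *Atp6ap2* iECKO libraries. The 2 were *Mmrn1* (0.52, adjusted *P* = 0.123 from limma) and *Ccl21a* (0.37, adjusted *P* = 0.144).

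Promoter sequences of 3 of the 6 members (*Tek*, *Tie1* and *Angpt4*) were found in RefSeq (GRCm38.p6) and those of *Angpt1*, *Angpt2* and *Ptprb* were not. They are shown because *Tek* and *Tie1* were among the most highly expressed genes in these cells and *Angpt4* was at or near 0. Each is printed 5′ to 3′ on the strand of its gene. The *Tek* and *Angpt4* sequences end at the base before the RefSeq start, and that of *Tie1* ends where the first annotated exon begins. Capitals mark GGAA on either strand, the core that ETS factors such as ERG and FLI1 bind, in *Tek* (chr4:94739039-94739288, plus strand) and *Tie1* (chr4:118490062-118490099, minus strand), and TATAAA, the TATA box, in *Angpt4* (chr2:151910957-151911206, plus strand).
Tek: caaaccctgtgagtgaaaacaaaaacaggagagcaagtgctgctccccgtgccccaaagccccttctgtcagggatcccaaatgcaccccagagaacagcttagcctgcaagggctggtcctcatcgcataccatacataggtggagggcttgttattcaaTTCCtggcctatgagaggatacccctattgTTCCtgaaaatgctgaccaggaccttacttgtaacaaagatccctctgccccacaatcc
Tie1: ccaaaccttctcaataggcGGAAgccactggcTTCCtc
Angpt4: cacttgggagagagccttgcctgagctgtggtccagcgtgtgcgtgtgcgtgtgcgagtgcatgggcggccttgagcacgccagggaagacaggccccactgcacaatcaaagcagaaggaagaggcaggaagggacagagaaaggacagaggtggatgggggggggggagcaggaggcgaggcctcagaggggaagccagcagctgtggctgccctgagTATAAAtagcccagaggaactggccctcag

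Over the 250 bases before the RefSeq start, both strands searched, GGAA occurred 2 times in *Tek*, 7 times in *Tie1* (5 of them in bases annotated as exon, not printed) and 5 times in *Angpt4*, where 93.4% of 32851 promoters of the same length held it at least once and the median was 3. TATAAA occurred only in *Angpt4*, beginning 30 bases before the start (12.4% of promoters). ACAAAG, a SOX core, occurred 1 time in *Tek*, 26 bases before the start, and in 16.5% of promoters. The motif AGATAA, read by factors of the GATA family, was found in none of the 3 windows and in 9.99% of promoters. The forkhead motif TGTTTAC was likewise found in none of them and in 3.17% of promoters. No matches of different motifs overlapped in these windows.

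*Ptprb*, on the plus strand of chromosome 10 (116275523 to 116389535, with 32 exons), encodes the phosphatase that restrains Tie2. Its normalized counts were 75165, 61489 and 54908 in control replicates 1 to 3 and 46605, 40865 and 32718 in *Atp6ap2* iECKO replicates 1 to 3. Every *Atp6ap2* iECKO library was below every control, and both genotypes spread more widely than for *Tek*. The means were 63854 ± 10334 and 40063 ± 6978 (SD, n = 3 each), 62.7% of control. The log2 fold change of -0.68 missed the threshold (standard error 0.17, 95% confidence interval -1.07 to -0.28, adjusted *P* = 0.0527 from limma). The alternatives under which it passed included library size scaling (-0.63, adjusted *P* = 0.031), upper quartile scaling (-0.67, 0.0451) and scaling to the endothelial markers (-0.68, 0.00718). It did not pass when any 1 of the 6 libraries was omitted (from -0.79 to -0.54, adjusted *P* from 0.0557 to 0.182). In the 4 libraries with *Xist* it was -0.80 (adjusted *P* = 0.203), and between the other pair -0.43.

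Levels of different genes were compared per kilobase of exon. In controls *Tie1* was at 6445 ± 501, *Tek* at 5028 ± 424, *Ptprb* at 4789 ± 775, *Angpt1* at 297.3 ± 12.03 and *Angpt2* at 214.8 ± 17.8 normalized counts per kilobase (SD, n = 3 each), with *Angpt4* at 0. The receptors and the phosphatase ranked 109th, 163rd and 174th of 14311 genes by this level, and *Angpt1* and *Angpt2* ranked 4248th and 5325th. *Tek* and *Ptprb* were within their spread of each other, and each other step in this order was larger than the SD of either neighbor. In *Atp6ap2* iECKO iLECs the order of the ligands was the other way, with *Angpt2* at 293.0 ± 83.3 and *Angpt1* at 115.4 ± 37.4. *Tie1* was at 5630 ± 841, *Tek* at 3497 ± 341 and *Ptprb* at 3005 ± 523 there. With the length of the longest coding transcript in place of all exons, *Tie1* and *Angpt1* were higher (7485 and 363.3 in controls), and *Ptprb* (5361) came before *Tek* (5091).

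Ratios between members within a library do not depend on how libraries were scaled. The ratio of *Angpt2* to *Angpt1* per exon length was 0.83, 0.68 and 0.66 in control replicates 1 to 3 and 1.26, 3.47 and 3.77 in *Atp6ap2* iECKO replicates 1 to 3. Per exon length, *Angpt1* was thus the more abundant ligand transcript in every control and the less abundant in every *Atp6ap2* iECKO library. In *Atp6ap2* iECKO replicate 1 this order rests on the lengths used, as its normalized counts were 819 for *Angpt1* and 733 for *Angpt2*. The log2 ratio differed by 1.82 between genotypes. The ratio of *Angpt1* to *Tek* was 0.05 to 0.06 in controls and 0.03 to 0.04 in *Atp6ap2* iECKO libraries, a log2 difference of -0.89. The ratio of *Angpt2* to *Tek* was about equal in the controls (0.0427, 0.0438 and 0.0417) and higher in the *Atp6ap2* iECKO libraries (0.0516, 0.1032 and 0.1018), a log2 difference of 0.93.

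The ratio of *Tie1* to *Tek* was 1.27, 1.28 and 1.29 in control replicates 1 to 3 and 1.68, 1.63 and 1.51 in *Atp6ap2* iECKO replicates 1 to 3. The log2 ratio differed by 0.32 between genotypes, with an SD of 0.01 in controls and of 0.08 in *Atp6ap2* iECKO libraries. None of these 4 ratios overlapped between genotypes, and each had an exact permutation *P* value of 0.1, the smallest possible, and an adjusted *P* value of 0.125 over 5 ratios. The ratio of *Ptprb* to *Tek* overlapped, at 0.85 to 1.02 in controls and 0.77 to 0.91 in *Atp6ap2* iECKO libraries (log2 difference -0.15, exact permutation *P* = 0.3, adjusted *P* = 0.3). With each library left out in turn, the 5 differences kept their sign, from 1.54 to 2.32 for *Angpt2* to *Angpt1* and from 0.29 to 0.37 for *Tie1* to *Tek*.

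**Figure D3:**
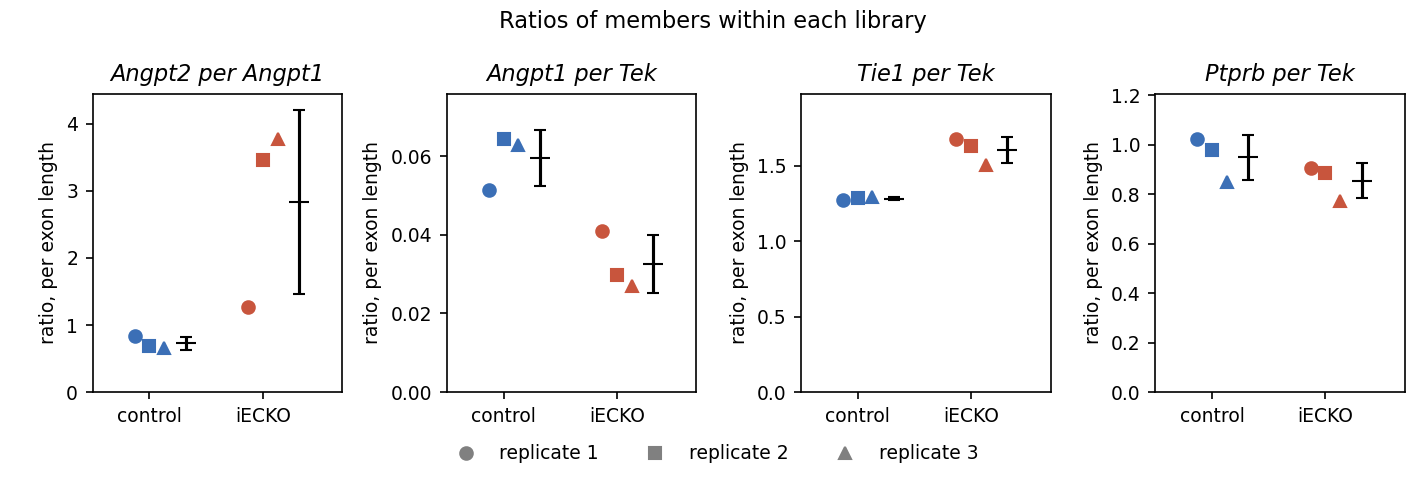
Ratio of 2 members per exon length within each library (y axes, from 0), with symbols for the replicate number and bars for the mean and SD of 3 libraries. Angpt2 per Angpt1 is below 1 in all controls and at 1.26 or above in the iECKO libraries, Tie1 per Tek is at 1.27 to 1.29 in controls and 1.51 to 1.68 in iECKO libraries, and Ptprb per Tek overlaps.

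The size of the change in each *Atp6ap2* iECKO library followed a like order for several members. Relative to the control mean, *Atp6ap2* was at -0.57, -1.43 and -1.66 on the log2 scale in *Atp6ap2* iECKO replicates 1 to 3. *Angpt1* was at -0.92, -1.53 and -1.79 and *Tek* at -0.38, -0.54 and -0.66 in the same libraries. *Ptprb* was at -0.44, -0.63 and -0.95, and *Tie1* at 0.01, -0.19 and -0.43. Replicate 1 was thus nearest to controls and replicate 3 farthest for each of these 4 members, as for *Atp6ap2*. *Angpt2* was at -0.11, 0.74 and 0.59. The means of the mural and fibroblast markers had the same order (-1.31, -1.48 and -1.54, and -1.07, -1.47 and -1.62). The mean of the endothelial markers also declined from replicate 1 to 3 (0.09, 0.04 and -0.10). Relative to those markers, *Tek* was at 0.25, 0.14 and 0.15 in these libraries, so that replicate 3 was not the lowest. *Tie1* (1.06, 0.91 and 0.81) and *Ptprb* (1.61, 1.47 and 1.28) kept the order. Among controls, replicate 1 was also the highest for *Atp6ap2* (0.25, -0.11 and -0.14 in control replicates 1 to 3) and *Ptprb* (0.25, -0.04 and -0.21). The same held for *Tek*, *Tie1*, *Angpt2* and the mean of the endothelial markers (0.15, -0.01 and -0.14). *Angpt1* and the means of the mural and fibroblast markers were instead lowest in control replicate 1. With 3 libraries per genotype, whether these orders are related to each other or to the replicate number was not tested.

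**Figure D4:**
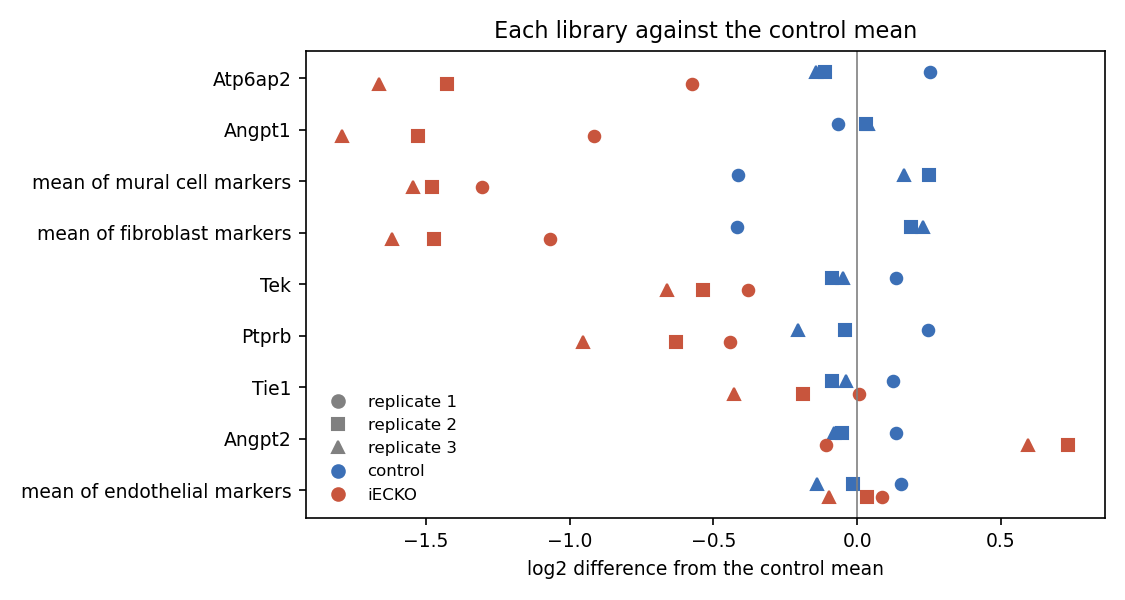
Log2 difference of each library from the control mean (x axis) for the targeted gene, the 5 tested members and the mean of 3 marker lists, with color for genotype and symbol for replicate number. For Atp6ap2, Angpt1, Tek, Ptprb and Tie1, iECKO replicate 1 is nearest to the control mean and replicate 3 farthest below it. For Angpt2 replicate 1 is also nearest, at -0.11, and replicates 2 and 3 are above the control mean, at 0.74 and 0.59.

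Beyond the members, genes of the pathway were read from 5 lists, beside a share of 8.25% called over all genes. Of 4 tested angiopoietin-like genes, relatives of the ligands that do not bind Tie2, 2 passed as lower and 0 as higher. *Angptl4*, a secreted inhibitor of lipoprotein lipase, had normalized counts of 1079, 1846 and 1760 in controls and of 806, 635 and 696 in *Atp6ap2* iECKO libraries (log2 fold change -1.10, adjusted *P* = 0.0215 from limma). *Angptl2* had 884 to 1426 in controls and 558 to 673 in *Atp6ap2* iECKO libraries (-0.99, adjusted *P* = 0.0221). Neither gene passed when control replicate 2 or 3 or *Atp6ap2* iECKO replicate 2 or 3 was left out.

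Of 9 tested genes on the list of proteins that bind or process the Tie receptors and angiopoietins, 2 passed as lower and 0 as higher, with a median log2 fold change of -0.05. *Svep1*, which encodes a large mesenchymal matrix protein that binds Tie1, had normalized counts of 1317, 2052 and 1588 in controls and of 894, 664 and 705 in *Atp6ap2* iECKO libraries. All *Atp6ap2* iECKO values were below all controls (log2 fold change -1.12, adjusted *P* = 0.0138 from limma). *Mmp14*, which encodes a membrane-bound metalloproteinase able to shed Tie2, fell by less (-0.54, adjusted *P* = 0.0175). Neither passed without control replicate 3 or without *Atp6ap2* iECKO replicate 2 or 3. *Adam17*, another sheddase gene, and the integrin genes *Itga5* and *Itgb1*, whose products associate with Tie2, differed by -0.15, -0.05 and 0.06 on the log2 scale (adjusted *P* = 0.456, 0.782 and 0.805). Of the other integrin genes on the list, *Itgb5* was lower without overlap between genotypes but did not pass (-0.48, adjusted *P* = 0.109 from limma). *Itgav* and *Itgb3* differed by -0.02 and 0.04.

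Downstream of Tie2, 1 of 34 signaling genes passed as lower and 0 as higher, with a median log2 fold change of -0.14 against 0.00 over all genes. The gene was *Src*, a tyrosine kinase (675, 701 and 1039 in controls and 466, 530 and 400 in *Atp6ap2* iECKO libraries, -0.77, adjusted *P* = 0.0458), and it passed in 0 of 6 fits on 5 libraries. *Foxo1* had values of 4772 to 6133 in controls and of 4495 to 4820 in *Atp6ap2* iECKO libraries (-0.20, adjusted *P* = 0.276), and the nitric oxide synthase gene *Nos3* had a log2 fold change of -0.17 (adjusted *P* = 0.479). Of 22 tested FOXO target genes other than *Angpt2*, 2 passed as lower and 0 as higher, with a median of -0.21. With library size scaling 1 passed as lower and 1 as higher. The genes that fell were *Irs2*, an adaptor of the insulin receptor (-0.92, adjusted *P* = 0.0154), and the transcriptional regulator gene *Cited2* (-0.62, adjusted *P* = 0.0385). Without control replicate 3 or *Atp6ap2* iECKO replicate 2 or 3, 0 of these targets passed. Without control replicate 2 or *Atp6ap2* iECKO replicate 1, 1 of them passed.

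Of 20 transcription factor genes known to act on the Tie and angiopoietin promoters, among them the ETS factor genes *Erg*, *Fli1*, *Ets1* and *Elf1*, 0 passed by limma (1 at an unadjusted *P* value below 0.05). Their log2 fold changes lay between -0.48 and 0.57. Without control replicate 1, 2 of the 20 passed, 1 as higher and 1 as lower.

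The genes whose profiles over the 6 libraries were most like those of the members were sought among 11316 genes with a mean of at least 100, by the root mean square difference of log2 values centered on each gene's mean. Nearest to *Angpt1* were *Pcolce2*, an enhancer of procollagen processing (0.06), *Dact3*, a regulator of Wnt signaling (0.07), and *Rtn2* (0.10). Nearest to *Tek* were *Slc3a2*, a subunit of amino acid transporters (0.02), *Ccdc28b* (0.03) and *Galnt10* (0.04). Normalized counts of *Slc3a2* were 8822, 7818 and 8056 in controls and 6178, 5671 and 5074 in *Atp6ap2* iECKO libraries, within 0.03 of *Tek* on the centered log2 scale in every library. Nearest to *Ptprb* were *Dcun1d4* (0.06), *Il4ra*, a cytokine receptor gene (0.07), and *Ube2h* (0.07). Nearest to *Tie1* were *9530068E07Rik* (0.03), the interferon-induced gene *Ifitm3* (0.03) and *Layn* (0.04), and nearest to *Angpt2* were *Pop4*, *Inip* and *Spata5* (0.10, 0.10 and 0.11). With the largest difference in any library as the measure, 2 of the 3 genes stayed for each member.

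Of the other cell types, 0 of 14 leukocyte markers and 1 of 12 epithelial markers passed by limma, the latter *Scgb1a1*, a club cell secretory protein, as higher (1.75, adjusted *P* = 0.0408). Of the leukocyte markers 0 had an unadjusted *P* value below 0.05. Sums of leukocyte markers, led by *Lyz2* and *Ptprc*, were 7806 to 14348 in controls against 6246 to 18978 in *Atp6ap2* iECKO libraries. Those of epithelial markers, led by *Sftpc* and *Ager*, were between 26142 and 70914 and between 32450 and 39483, with the highest in control replicate 3. The part of these cells in the results for *Tek*, *Ptprb* and *Angpt2* was not tested.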

How the data were processed

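mRNA libraries of CD31+ lung cells were sequenced by the authors, who aligned the reads to mm10 and quantified genes with BaseSpace tools. The deposited table holds 1 signal value per gene symbol and library. Although these are named raw counts in the sample labels, at most 3.42% of the values above 0 are whole numbers and every library has the same median ratio (1.0036) to the genes' geometric means, so the authors had already normalized them, and no count model was used. The genome build is mm10 per the labels, and gene models were those of GENCODE M21 on the same build (GRCm38).

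The 14456 genes that reached 10 in 3 or more libraries entered a limma fit (version 3.58.1, R 4.3.3) of log2(value + 1) on genotype alone, with a mean-variance trend and adjustment over all of them. A fold change on this scale understates the change of low genes. Ratios and values relative to markers were compared with two-sided exact permutation tests. *P* values rest on the spread between these 3 samples per genotype, which limma moderates by the spread of all genes tested. As no read numbers are given, no counting error is stated. Members and gene lists were chosen with earlier results of these data known. Named genes were the members, pathway list genes past the threshold, *Foxo1*, *Cdh5*, *Nos3*, *Svep1*, leading and defining markers and the 3 nearest profiles per member. Others named without passing (*Adam17*, the integrin genes, *Esm1*, *Mcph1*, *Calcrl*, *Mmrn1*, *Ccl21a* and the ETS factor genes) were chosen after their values were seen. So were the markers *Apln*, *Cxcr4*, *Adm* and *Scgb1a1*. Tests were tried on simulated data. Alternatives were other scalings, filters, pseudocounts, variance models, thresholds and covariates, and libraries left out. Figures were drawn with matplotlib 3.10.9.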

Additional observations from a re-analysis of the deposited data

How the results depend on the processing

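*Angpt1* was lower with an adjusted *P* value below 0.05 under all alternatives except a threshold of 0.01 (-1.41) and the 4 libraries with *Xist*, chosen after seeing the data (-1.34). *Tek* kept its direction and lost significance without the mean-variance trend (-0.53, adjusted *P* = 0.0765), with presence of *Xist* as a covariate (-0.53, 0.0548), at 0.01 (-0.53), in the 4 libraries (-0.54), and in 5 fits without 1 library (all 6 from -0.60 to -0.46). *Ptprb* passed with library size (-0.63), upper quartile (-0.67) and endothelial marker (-0.68) scaling, a filter at 50 (-0.68), robust empirical Bayes (-0.68), the replicate block (-0.68, adjusted *P* = 0.0123) and a threshold of 0.1 (-0.68). *Angpt2* passed only without *Atp6ap2* iECKO replicate 1 (0.24 to 0.66 with 1 library left out). Across genes, deviations from the genotype mean had correlations of 0.25, 0.11 and 0.08 between libraries of the same number (-0.21 to 0.10 between others), so the numbers were not taken as pairs. With the block 3 members and 1508 genes passed in place of 2 and 1193, and it changed no other member's call. *Angpt1* relative to mural markers reversed with a pseudocount of 10 (-0.0326) and, with 1 library left out, lay between -0.15 and 0.20, and relative to fibroblast markers it reversed with a filter at 50 (0.0183) and lay between -0.12 and 0.15.

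The number of genes passing was 656 (163 higher, 493 lower) with endothelial marker scaling, 573 and 599 with library size scaling (474 and 719 as reported), 304 without the trend, 767 with the *Xist* covariate, 206 to 983 with 1 library left out, 0 in the 4 libraries, 90 at 0.01 and 1987 at 0.1. The members passing were 1 without the trend and with the *Xist* covariate, 1 to 3 with 1 library left out, 0 in the 4 libraries (3 at an unadjusted *P* value below 0.05) and 0 at 0.01. Angiopoietin-like genes (0 to 2 with 1 library left out), regulators (0 to 2) and signaling genes (0) fell to 0 without the trend, in the 4 libraries and at 0.01, and signaling genes also with library size and endothelial marker scaling (0), with 2 at 0.1. FOXO targets passing were 1 with endothelial marker scaling and the *Xist* covariate, 0 without the trend, in the 4 libraries and at 0.01, 4 at 0.1 and 0 to 3 with 1 library left out. Transcription factor genes passing were 0 to 2 with 1 library left out. The causes were not tested, beyond the smaller number of samples where libraries were left out. A count model (DESeq2) was not run because the values are not counts. Low values such as those of *Angpt4* could not be compared.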
